A study of Homo sapiens with 8 samples.

Results

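The acute-phase genes SAA1, SAA2, LCN2, C3, CFB and SOD2 were followed across 8 single-cell RNA libraries of the breast cancer cell line SUM159, which is triple-negative and long established. The 6 genes were chosen by name from 18955 genes in the table, with their levels in these libraries already known, so their levels, shares of cells and joint occurrence are given as a description with no test. Of the 6 genes, 4 (SAA1, SAA2, C3 and SOD2) reached 5 CPM (UMI counts scaled to an equal library total) in at least 2 libraries, as did 9288 genes in all. LCN2 and CFB did not.

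The study followed barcoded SUM159 cells under long selection with JQ1, which displaces BET bromodomain proteins from chromatin, palbociclib, an inhibitor of the cyclin-dependent kinases CDK4 and CDK6, and paclitaxel, which stabilises microtubules. Every culture, controls included, had received lentiviral DNA barcodes. The pre-treatment library held parental cells. A first experiment gave the libraries DMSO (vehicle), paclitaxel (0.6 nM), JQ1-A (100 nM) and JQ1+paclitaxel (the same doses together), and a second gave palbociclib (160 nM), JQ1-B (100 nM) and JQ1+palbociclib, with no vehicle library of its own. The selected cultures were passaged up to 18 times, and replicate cultures of a treatment were pooled into 1 library. A JQ1+palbociclib culture was lost during selection. Only JQ1 alone therefore had 2 libraries, 1 in each experiment.

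Acute-phase proteins are secreted in large amounts during inflammation, mainly by the liver, when interleukin-6 and interleukin-1 act through STAT3, C/EBP factors and NF-kB on their promoters. SAA1 and SAA2 encode the inducible serum amyloid A proteins, LCN2 encodes lipocalin 2, which binds bacterial siderophores, C3 is the central complement component, and CFB is the protease subunit of the alternative pathway convertase. SOD2, the manganese superoxide dismutase of mitochondria, is not a secreted protein but is a classical NF-kB target.

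The libraries held 459 to 1024 cells and 10621159 to 24240835 UMIs (unique molecular identifiers, each standing for 1 captured transcript), and 13 cell barcode sequences occurred in more than 1 library. Defining markers of SUM159 summed to 13277 to 18590 CPM, and the steroid receptor genes ESR1 and PGR together to at most 0.139 CPM. Of 5 hepatocyte markers 4 were not in the table and the sum was 0.550 to 1.49 CPM. Of 5 leukocyte markers 2 were not in the table. The others summed to 8.003 to 12.8 CPM, highest in DMSO, where CD68 alone had 12.1 CPM and PTPRC 0.471 CPM. Counting intervals on levels are exact 95% Poisson intervals. They cover counting error only, and they are too narrow as a measure of culture-to-culture spread, which a single library cannot show. They also take UMIs as independent, as do the intervals on ratios between libraries, while SAA1 UMIs were clumped in cells. In DMSO the richest cell held 68 of the 281 SAA1 UMIs. Such intervals are thus also too narrow for which cells were captured.

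SAA1 and SAA2 are neighbours on chromosome 11 in opposite orientation (GRCh37, SAA1 at chr11:18287807-18291524 on the plus strand, SAA2 at chr11:18260770-18270215 on the minus strand). The coding sequences are 97.0% identical over 369 bases. The last 90 coding bases are shown because 3′ counting samples this end of the transcript. They span chr11:18291313-18291402 for SAA1 and chr11:18266924-18267013 for SAA2, and the 3 positions in capitals are those that differ.
SAA1: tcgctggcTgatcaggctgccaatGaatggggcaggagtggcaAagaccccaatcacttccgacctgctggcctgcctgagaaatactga
SAA2: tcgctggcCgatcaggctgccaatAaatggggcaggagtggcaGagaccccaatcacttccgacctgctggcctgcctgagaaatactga
Over the last 300 bases of the 2 main transcripts, 9.96% of all 50-base windows also occurred in the other gene, so part of the reads cannot be assigned to SAA1 or SAA2 with certainty.

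SAA1 stood at 257 CPM (249 to 264) in palbociclib. It was 65.5 CPM in pre-treatment, 59.8 in JQ1+paclitaxel, 26.5 in DMSO and 19.0 in paclitaxel. It was 5.94 CPM in JQ1+palbociclib, 3.74 in JQ1-B and 2.90 in JQ1-A. Palbociclib thus stood above all other libraries, 4 libraries lay between 19.0 and 65.5 CPM, and 3 of the 4 JQ1-exposed libraries lay between 2.90 and 5.94 CPM. In this order pre-treatment and JQ1+paclitaxel had overlapping intervals (61.3 to 69.8 and 55.8 to 63.9), as had JQ1-A (2.13 to 3.86) and JQ1-B (2.95 to 4.69). The 2 JQ1 libraries, from separate experiments, differed by a ratio of 1.29 (0.884 to 1.90).

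SAA2 followed the same order at the top. It had 48.9 CPM (45.6 to 52.4) in palbociclib, 9.79 in pre-treatment and 5.02 in JQ1+paclitaxel. DMSO had 2.17 CPM and paclitaxel 2.64, with overlapping intervals. The other 3 JQ1-exposed libraries held 3 (JQ1-A), 6 (JQ1-B) and 11 (JQ1+palbociclib) SAA2 UMIs in total. SAA2 made up 16.0% (15.02 to 17.1) of the SAA1 and SAA2 UMIs in palbociclib, 13.0% (11.04 to 15.2) in pre-treatment, 12.2% in paclitaxel and between 6 and 7.75% in the other 5 libraries. The exact binomial interval of palbociclib lay above that of JQ1+paclitaxel (6.11 to 9.66). These intervals take UMIs as independent, while the 72 SAA2 UMIs of JQ1+paclitaxel lay in 25 cells. In palbociclib the richest cell held 76 of 810. A difference in share was therefore not tested.

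C3 (chr19:6677715-6730573, minus strand) reached 25.1 CPM (22.8 to 27.7) in palbociclib. It was 7.80 CPM in pre-treatment and 7.18 in JQ1+paclitaxel, whose intervals overlapped, and lay between 2.04 and 3.40 CPM in the other 5 libraries, whose intervals overlapped. In JQ1-A, where SAA1 was low, C3 was 1.16 times its DMSO level (0.737 to 1.87).

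SOD2 (chr6:160090101-160183561, minus strand) had 645 CPM (633 to 657) in palbociclib, 317 in pre-treatment and 231 in DMSO. JQ1+paclitaxel (134 CPM) and paclitaxel (129) had overlapping intervals. JQ1-A followed at 113 CPM, below both. JQ1+palbociclib (102 CPM) and JQ1-B (94.7) came last, with overlapping intervals. All 4 JQ1-exposed libraries lay below pre-treatment, DMSO and palbociclib.

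**Figure D1:**
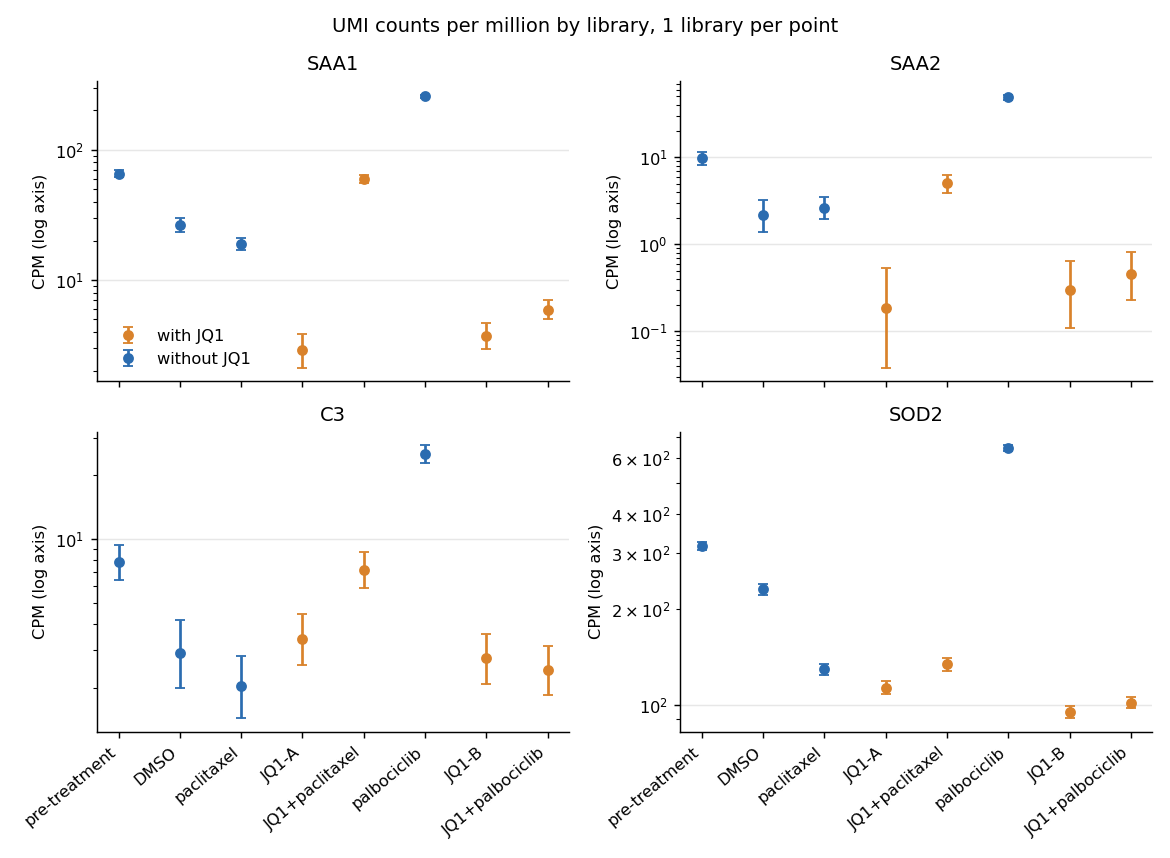
CPM (log axis) of SAA1, SAA2, C3 and SOD2 in each of the 8 libraries, with exact 95% Poisson intervals (counting error only) and JQ1-exposed libraries in orange. Palbociclib was highest for all 4 genes, and JQ1+paclitaxel was the highest of the JQ1-exposed libraries, at 59.8 CPM for SAA1.

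LCN2 (chr9:130911350-130915732, plus strand) was at the edge of detection. It had 1 UMI in each of pre-treatment, palbociclib and JQ1+palbociclib and 0 in the other 5 libraries, where a count of 0, read as a limit of 3 UMIs, allows up to 0.282 CPM in DMSO and 0.148 CPM in JQ1-B. CFB (chr6:31913427-31919863, plus strand) had 16 UMIs in all, between 0 in paclitaxel and 5 in palbociclib. The level of CFB in palbociclib was 0.302 CPM (0.0981 to 0.705) and that in DMSO 0.282 CPM (0.0582 to 0.825), from 3 UMIs, which could not be told apart at this depth. SAA1, SAA2, C3 and SOD2 were all at their highest in palbociclib.

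Promoter windows were at hand for 3 of the 6 genes, LCN2, CFB and SOD2, from RefSeq on GRCh38.p14. SAA1, SAA2 and C3 had no entry. The 250 bases before the start site are shown, since LCN2 and CFB were nearly silent while SOD2 was not. Of 4 listed SOD2 starts the most downstream is given. The windows are chr9:128149203-128149452 (plus strand) for LCN2, chr6:31945845-31946094 (plus strand) for CFB and chr6:159693242-159693491 (minus strand) for SOD2. Capitals mark matches on either strand to GGG and CC with any 5 bases between them (a loose NF-kB pattern), TTGCNNAA (C/EBP) and TTCNNNGAA (STAT), and matches may overlap.
LCN2: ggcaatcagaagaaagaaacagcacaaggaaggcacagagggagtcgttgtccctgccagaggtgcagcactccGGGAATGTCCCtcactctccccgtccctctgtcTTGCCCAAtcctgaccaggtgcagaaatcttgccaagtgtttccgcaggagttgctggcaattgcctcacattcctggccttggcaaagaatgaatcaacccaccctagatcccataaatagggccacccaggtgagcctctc
CFB: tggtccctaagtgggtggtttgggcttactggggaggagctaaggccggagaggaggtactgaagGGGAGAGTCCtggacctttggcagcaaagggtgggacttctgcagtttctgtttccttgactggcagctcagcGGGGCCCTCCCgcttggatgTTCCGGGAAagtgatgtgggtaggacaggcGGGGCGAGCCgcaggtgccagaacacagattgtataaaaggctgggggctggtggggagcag
SOD2: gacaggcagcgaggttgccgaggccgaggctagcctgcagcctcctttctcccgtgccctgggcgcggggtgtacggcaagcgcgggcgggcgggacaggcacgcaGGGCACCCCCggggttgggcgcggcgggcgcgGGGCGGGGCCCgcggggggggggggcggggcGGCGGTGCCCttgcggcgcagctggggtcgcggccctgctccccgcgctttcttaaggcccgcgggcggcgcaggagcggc
The NF-kB pattern had 2 match positions in LCN2, 4 in CFB and 4 in SOD2. It is short and rich in G and C, and 54.4% of all 35116 windows of this length held it. The C/EBP pattern had 1 match, in LCN2 (9.05% of all windows), and the STAT pattern 1, in CFB (6.57%). A match describes letters in the window and not binding.

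Ratios between libraries show how the 4 genes moved with each drug. SAA1 was 9.70-fold (8.59 to 10.98), SAA2 22.6-fold (14.95 to 35.9), C3 8.61-fold (5.97 to 12.8) and SOD2 2.79-fold (2.67 to 2.92) higher in palbociclib than in DMSO. DMSO belonged to the other experiment, so drug and experiment cannot be told apart in these ratios. All 4 tested members were at least 2-fold higher, as were 2.45% of the 9288 genes, a count that repeats how the genes were chosen. SAA2 and C3 passed the 5 CPM limit only through palbociclib, pre-treatment and JQ1+paclitaxel, where they were highest. Counts of members past 2-fold are therefore no evidence of enrichment, here or below. Against pre-treatment the ratios were lower, at 3.92 (3.65 to 4.21) for SAA1, 5 for SAA2 (4.17 to 6.03), 3.22 for C3 and 2.03 for SOD2.

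Within the palbociclib experiment, adding JQ1 to palbociclib went with low levels of every one of these genes. SAA1 was 43.2-fold (36.6 to 51.3) lower in JQ1+palbociclib than in palbociclib, SAA2 108-fold (59.9 to 217), C3 10.3-fold (7.85 to 13.8) and SOD2 6.35-fold (6.08 to 6.64). Of the tested members 4 passed a 2-fold difference, against 4.67% of all genes in that direction, a count that again repeats the choice of genes. Beside JQ1-B, JQ1+palbociclib had 1.59 times (1.19 to 2.12) the SAA1 level and 0.882 times (0.602 to 1.30) that of C3.

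Within the paclitaxel experiment, JQ1-A had 9.11-fold (6.67 to 12.7) less SAA1 than DMSO and 2.04-fold (1.92 to 2.17) less SOD2. SAA2 was 11.7-fold lower (3.53 to 60.8), a ratio that rests on 3 UMIs in JQ1-A. With these, 3 of the 4 tested members, chosen with these levels known, were at least 2-fold lower, against 8.86% of all genes. With TMM library sizes the SOD2 ratio was 0.583, which no longer passed. The addition of paclitaxel to JQ1 went the other way. SAA1 was 20.6-fold (15.3 to 28.2) higher in JQ1+paclitaxel than in JQ1-A, SAA2 27.1-fold (8.90 to 134) and C3 2.11-fold (1.51 to 2.99), while SOD2 was 1.19-fold (1.11 to 1.26) higher. The 2-fold limit was passed by 3 of the 4, against 0.495% of all genes, and this count too repeats the choice and the filter. In paclitaxel without JQ1 the SAA1 level was 0.720 times that of DMSO (0.613 to 0.845). JQ1+paclitaxel thus had 3.14-fold (2.77 to 3.57) more SAA1, 3.53-fold (2.40 to 5.29) more C3 and 1.04-fold (0.976 to 1.10) more SOD2 than paclitaxel.

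Levels across a library can rise because more cells carry a transcript or because some cells carry much of it. All cells were therefore thinned to 10000 UMIs. SAA1 had a UMI in 46.2% of thinned palbociclib cells (42.4 to 50.1, exact binomial interval), 20.9% in pre-treatment, 12.4% in JQ1+paclitaxel, 8.61% in paclitaxel and 7.42% in DMSO. The share was 3.91% in JQ1+palbociclib, 1.91% in JQ1-B and 1.85% in JQ1-A. Without thinning the shares were 60.6% in palbociclib and 2.995 to 28.6% in the other 7 libraries. All cells were of 1 line, so no cell type without the gene gave a background share. Free RNA, also from SAA1-rich cells of the same library, can give single UMIs, and its part in the shares and the joint counts was not tested.

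SAA1 was carried unevenly. Had its UMIs been spread evenly over the cells, 92.8% of palbociclib cells would have had one, and 46.9% of JQ1+paclitaxel cells in place of the measured 12.4%. Cells with at least 4 SAA1 UMIs made up 17.5% of palbociclib cells and held 82.5% of the SAA1 UMIs there. In JQ1+paclitaxel 5.28% of cells held 82.8%, and in pre-treatment 5.15% held 62.5%. JQ1-A and JQ1+palbociclib had 0 such cells among 650 and 972 thinned cells. Before thinning, the highest single cell had 305 SAA1 UMIs, in palbociclib. JQ1+paclitaxel and pre-treatment thus had overlapping intervals for the SAA1 level, but not for the share of cells with SAA1 (9.86 to 15.3% against 17.7 to 24.5%).

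C3 was less clumped in cells than SAA1. Its share of cells was 19.3% (16.4 to 22.6) in palbociclib, where an even spread would give 21.5%, and the even value lay within the exact interval of the measured share in all 8 libraries. C3 had a mean of only 0.242 UMIs per thinned palbociclib cell, and at such counts the share is a weak measure of spread. The variance over the mean, 1 for an even spread, was 1.47 for C3 in palbociclib and 1.78 in JQ1+paclitaxel. It was 0.975 to 1.24 in the other libraries. For SAA1 it was 19.1 in palbociclib and 15.6 in JQ1+paclitaxel. The highest thinned cell had 6 C3 UMIs. SOD2 was present in 96.8% of palbociclib cells and in 58.6 to 85.4% of cells elsewhere. In palbociclib 68.4% of cells had at least 4 SOD2 UMIs, against 2.27% in JQ1-B.

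**Figure D2:**
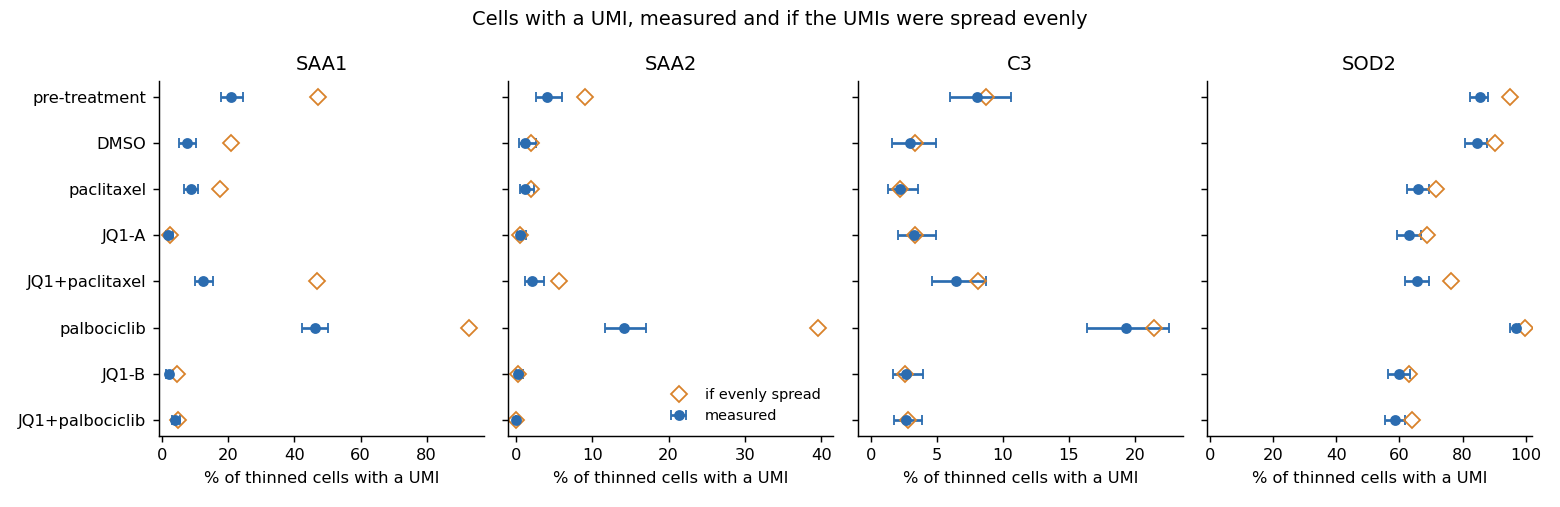
Percentage of thinned cells with a UMI (filled circles, exact 95% binomial intervals) for SAA1, SAA2, C3 and SOD2 in each library, and the percentage an even spread would give (open diamonds). SAA1 lay far below its even value in palbociclib (46.2 against 92.8%) and C3 did not (19.3 against 21.5%).

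Joint occurrence of the genes in 1 cell is set beside the number that independent shares would give. Intervals on the ratio are exact binomial ones on the joint count, with the expected number taken as fixed. They do not use the known number of cells with each gene and can be too wide. An interval that includes 1 is therefore not read as independence. In palbociclib 85 thinned cells had both SAA1 and SAA2, where independent shares would give 43.5, a ratio of 1.96 (1.58 to 2.38). Of the SAA2-containing cells there, 90.4% had SAA1 as well. SAA1 and C3 met in 75 cells, where 59.2 would be given (ratio 1.27, 1.01 to 1.57, and 0.998 to 1.56 without the cells of most UMIs). SAA2 and C3 met in 27 cells, where 18.2 would be given (ratio 1.49, 0.985 to 2.14), an interval that includes 1. SAA1 and C3 met in 16 cells against 4.83 in JQ1+paclitaxel (1.90 to 5.34 times) and in 23 against 9.84 in pre-treatment (1.49 to 3.47 times). They met in 2 to 4 cells in each of the other 5 libraries. The ratio cannot exceed the inverse of a gene's share of cells, so it is not ranked between libraries. All of SAA1, SAA2 and C3 were seen in 26 palbociclib cells, where 8.40 would be given, and in 7 pre-treatment cells, where 0.405 would be. The counting of reads that match both SAA1 and SAA2 was not stated, and their part in the joint count was not tested.

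SOD2 was higher in cells with more SAA1. In palbociclib SOD2 was 483 CPM (460 to 506) in the 356 cells with no SAA1 UMI, 693 (656 to 732) in 190 cells with 1 to 3, and 1145 (1084 to 1208) in 116 cells with 4 or more. In JQ1+paclitaxel the same classes had 122, 202 and 438 CPM. In pre-treatment they had 284, 340 and 483 CPM. SOD2 was thus higher in SAA1-rich cells in each of the 3 libraries with at least 20 such cells. C3 went from 15.7 CPM (11.9 to 20.4) to 40.5 (29.8 to 53.9) between the outer classes in palbociclib and from 5.42 (3.51 to 8.01) to 43.3 (23.1 to 74.1) in pre-treatment. Median depth was close in both kinds of cells, at 22649 UMIs with SAA1 and 22897 without in palbociclib, and the median mitochondrial shares were 5.49 and 5.63%.

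**Figure D3:**
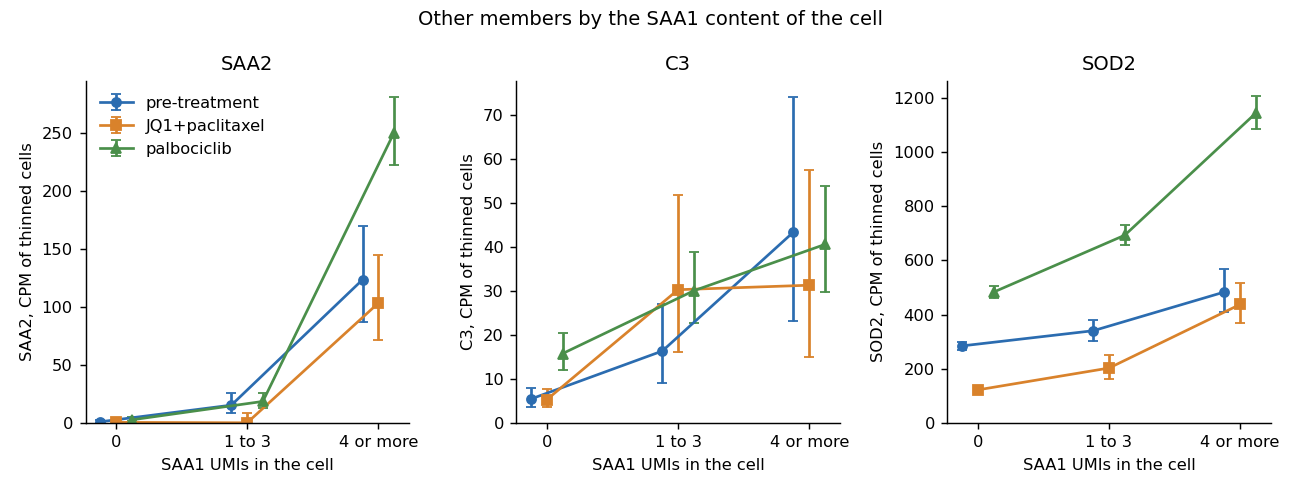
Mean CPM of SAA2, C3 and SOD2 in thinned cells with 0, 1 to 3, or 4 or more SAA1 UMIs in the pre-treatment, JQ1+paclitaxel and palbociclib libraries, with exact 95% Poisson intervals. SOD2 in palbociclib went from 483 to 693 and 1145 CPM over the 3 classes.

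Over palbociclib cells, the 10 genes whose log UMI count was closest to that of SAA1, among 8798 genes with a UMI in at least 5% of cells, were SAA2 (Pearson r = 0.692), SLPI (0.420), SOD2 (0.386), TGFBI, RPS14, COX7C, FAM65B, COL8A1, RPS23 and GLRX (0.255 to 0.346). The points share 1 library and fixed depth, and the lower values are weak. SLPI encodes a secreted inhibitor of leukocyte proteases with antimicrobial activity, and its level was 59.8 CPM in SAA1-containing and 10.7 CPM in other palbociclib cells. In pre-treatment cells the values were 17.2 and 3.47 CPM. In DMSO SLPI had 0 UMIs in the 33 SAA1-containing cells and 3.88 CPM in the others. With 34 SLPI UMIs in the whole DMSO library before thinning, so few cells cannot show a difference there. SOD2 was among the 28 closest genes in pre-treatment, DMSO, paclitaxel and JQ1+paclitaxel, but ranked 608 of 8628 in JQ1+palbociclib, where SAA1 was rare. TGFBI, a secreted matrix protein, ranked 1 in pre-treatment (r = 0.371) and had r = -0.07 in JQ1+paclitaxel. In JQ1+paclitaxel 155 cells contained FABP4, a fatty acid carrier, and 25.2% of these had SAA1, against 7.98% of the other cells.

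Across the 8 libraries, genes most like each member were named by Pearson r of log2(CPM + 1), a description over points that share treatments and 2 experiments. For SAA1 these were SAA2 (r = 0.970), FKBP8, HRH1, IFNGR1, a chain of the interferon gamma receptor, and RP11-11N9.4 (0.941 to 0.961). For SAA2 they were PPAP2B, SAA1, RPL35A, IFNGR1 and COL12A1. For C3 they were OXR1, RPS14, COL12A1, PRKDC and RPS3A, and for SOD2 ADAMTS9, NAMPT, LOXL1, CTD-2015H6.3 and IFNGR1. The palbociclib library weighs on these values. Without it (7 libraries) r was 0.970 between SAA1 and SAA2, 0.690 between SAA1 and C3 and 0.555 between C3 and SOD2, from 0.840 and 0.846 for the latter pairs over 8 libraries.

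The genes around these members were tested by edgeR, in 1 additive fit with a term for each drug. JQ1 compared 4 exposed with 4 unexposed libraries, and palbociclib and paclitaxel each compared 2 with 6. The background was large for JQ1, with 17.8% of 9288 genes called higher and 19.7% lower at an edgeR adjusted p under 0.05. For palbociclib 0.205% were called higher and 0.0754% lower. For paclitaxel the count was 0 in both directions by edgeR, although 395 genes had an unadjusted p below 0.05. The DESeq2 counts were 1 higher and 8 lower. Of the listed genes 32 were called for JQ1 and 0 for palbociclib or paclitaxel by edgeR (with an unadjusted p below 0.05, up to 4 a list for palbociclib and up to 2 for paclitaxel). As a share of the tested listed genes, the JQ1 calls were close to the share called among all genes. No list was tested as a set. DESeq2 called 3 for palbociclib, among them IL1R1 and FTH1, and 0 for paclitaxel. With the experiment as a further term 19 of the 32 JQ1 calls remained. Under every setting fixed for this fit that tested them, the experiment term included, 18 of 32 held. Within the JQ1+paclitaxel experiment alone 21 of the 32 were called, and within the JQ1+palbociclib experiment, which has 1 library without JQ1, 9 were.

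Among NF-kB and C/EBP factors and inhibitors, 7 of 18 tested genes fell with JQ1, 1 rose and 10 did not pass (median log2 fold change -0.46, against -0.00 over all genes). Over all genes 19.7% fell and 17.8% rose. NFKBIE, an inhibitor of NF-kB, fell by 1.15 on the log2 scale (SE 0.145, edgeR adjusted p = 0.0015), from 10.6 ± 1.31 CPM in unexposed to 4.19 ± 0.514 CPM (SD, n = 4) in exposed libraries. RELB (log2 fold change -0.89), NFKBIB (-0.75) and NFKB1 (-0.74) also fell. NFKBIA (-0.99), TNIP1 (-0.54) and IKBKG (-0.47) passed as well but were lost with the experiment term. IKBKB, the activating kinase, rose by 0.40 and was also lost. CEBPB and CEBPD, the C/EBP factors of the acute-phase response, did not pass.

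In the IL-6 family and STAT3 list, 3 of 14 tested genes rose with JQ1 and 1 fell (median 0.14). Over all genes 17.8% rose and 19.7% fell. SOCS1, a feedback inhibitor of cytokine signalling, rose by 1.37 (SE 0.292, edgeR adjusted p = 0.0092), and its relative SOCS3 fell by 1.38 (SE 0.367, edgeR adjusted p = 0.0205), the latter lost with the experiment term. PIAS3, an inhibitor of STAT3, rose by 0.73. The ligand gene IL6 did not pass (-0.16, SE 0.524, edgeR adjusted p = 0.827), nor did the receptor subunit IL6ST or STAT3 itself. In the IL-1 and TNF list, 4 of 16 fell and 0 rose (median -0.00), against 19.7% and 17.8% of all genes. MYD88, the adaptor of the IL-1 receptor, fell by 0.68 (SE 0.122, edgeR adjusted p = 0.0050), from 10.5 ± 0.722 to 5.68 ± 0.282 CPM (SD, n = 4). IRAK1 (-0.82), TRAF3IP2 (-0.57) and TRAF2 (-0.54) fell as well, but were lost with the experiment term.

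Of the complement list, 8 of 31 genes were tested, 3 fell and 2 rose with JQ1 (median 0.07). Over all genes 19.7% fell and 17.8% rose. C1R, the protease that starts the classical pathway, fell by 3.36 (SE 0.347, edgeR adjusted p = 0.000973). It was 0.413 to 0.488 CPM in all 4 exposed libraries and 2.53 to 8.94 CPM in the unexposed ones, with the highest level in palbociclib. Its level was 0.488 CPM in JQ1+paclitaxel, where SAA1 was 59.8 CPM. C1QBP (-0.67) and CD55 (-0.68), a membrane inhibitor of complement, fell. CLU, a secreted chaperone that inhibits complement, rose by 1.07 (SE 0.214, edgeR adjusted p = 0.0072) and was lowest in palbociclib at 6.58 CPM. CD46, another membrane regulator, rose by 0.36. The CD55 and CD46 calls were lost with the experiment term, and within the JQ1+palbociclib experiment the CD55 value was 0.16, the opposite direction.

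Of 27 other acute-phase genes 3 were tested and all were called for JQ1, where 17.8% of all genes rose and 19.7% fell. PTX3, a pentraxin of inflamed tissue, fell by 1.53 (SE 0.195, edgeR adjusted p = 0.0016), from 36.6 ± 12.8 to 10.9 ± 2.13 CPM (SD, n = 4). Its level in palbociclib, 35.9 CPM, was within the range of pre-treatment (52.6), DMSO (36.8) and paclitaxel (21.2), unlike that of SAA1. The ferritin subunits FTH1 (1.26) and FTL (1.17) rose. Both have many processed copies, so their counts are less certain. Among 19 tested genes of superoxide and peroxide removal, the list that fits SOD2, 5 rose and 3 fell (median 0.01). GPX4 rose by 1.33 (SE 0.115, edgeR adjusted p = 0.00063), TXNRD1 by 0.94, NQO1 by 0.87, CAT by 0.53 and HMOX1 by 0.45. TXNRD2 (-1.11), PRDX4 (-1.04) and GPX8 (-0.44) fell. The CAT, HMOX1 and GPX8 calls were lost with the experiment term. SLPI, the only tested antimicrobial gene, did not pass for JQ1 (-1.40, SE 0.542, edgeR adjusted p = 0.0715) or palbociclib (1.96, SE 0.596, edgeR adjusted p = 0.121), and the receptors TLR4 and SCARB1 did not pass for any drug.

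**Figure D4:**
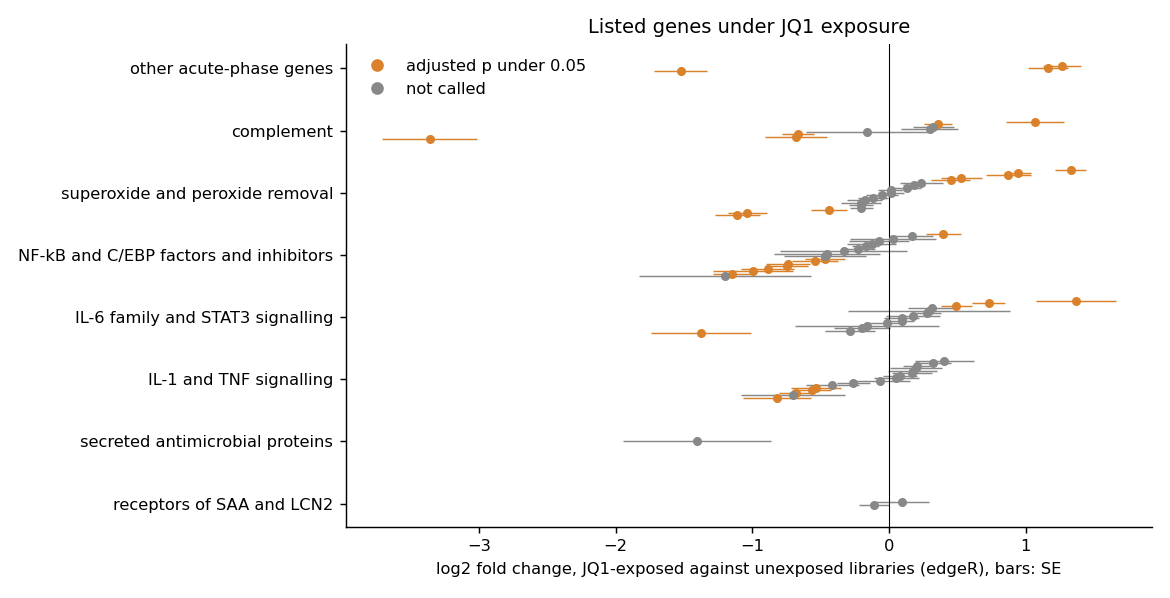
Log2 fold change with SE (edgeR, 4 JQ1-exposed against 4 unexposed libraries) of every tested gene of the 8 lists, with called genes in orange. The leftmost point is C1R at -3.36, and the NF-kB and C/EBP list has 7 called genes left of 0 and 1 right of it.

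The cells that carried a member were then compared with the cells that did not, within each library, for lists that the choice of members had not used. The library was the unit, and it was used for a member only with at least 20 thinned cells on each side. This left out DMSO and paclitaxel for C3, and JQ1-A and JQ1-B for SAA1. The test was an exact two-sided sign-flip permutation test, and 20 tests were made. None passed an adjusted p of 0.05. The smallest possible p was 0.031 with 6 libraries, 0.0078 with 8 and 0.5 with the 2 libraries that SAA2 allowed. Summed NF-kB and C/EBP genes were higher in SAA1-containing cells in 6 of 6 libraries, by 0.19 on the log2 scale (SD 0.110; exact p = 0.031, adjusted 0.125). They were also higher in SOD2-containing cells in 7 of 8 libraries, by 0.21 (SD 0.132; exact p = 0.016, adjusted 0.125). In palbociclib the list summed to 1183 CPM with SAA1 and 1098 CPM without. The genes of the list did not move alike, and single genes were not tested. CEBPB, NFKBIA and TNIP1, which add much to the sum, were higher with SAA1 in 6 of 6 libraries, whereas BCL3 was lower in 6 of 6. The subunit genes were mixed: NFKB1 and RELB were lower in 4 of 6, NFKB2 was higher in 4 of 6, and RELA and REL were higher in 3 of 6. In palbociclib NFKB1 was 23.5 CPM with SAA1 and 32.3 CPM without, and NFKB2 was 16.3 CPM with SAA1 and 13.5 CPM without.

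C3-containing cells had lower sums of G2/M genes in the 6 libraries with enough cells, by a mean log2 ratio of -0.52 (SD 0.278, exact sign-flip p = 0.031, adjusted 0.125). Values went from -0.90 in JQ1-B, with only 22 C3-containing cells, to -0.08 in pre-treatment, with 47. In palbociclib the G2/M sum was 2302 CPM with C3 and 2933 CPM without. S-phase genes were lower too, by a mean of -0.20 (SD 0.111; exact p = 0.031, adjusted 0.125). In SAA1-containing cells the mean G2/M ratio was -0.04 (SD 0.267, exact p = 0.906), with values from -0.37 in JQ1+paclitaxel to 0.38 in JQ1+palbociclib, and the mean S-phase ratio was 0.01 (SD 0.215, exact p = 0.906). SOD2-containing cells had a mean G2/M ratio of -0.23 (exact sign-flip p = 0.023, adjusted 0.125). Its most extreme value, -0.78 in palbociclib, rests on 21 cells without SOD2. The IL-6 and the IL-1 lists gave adjusted exact p-values of 0.182 or more for every member.

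**Figure D5:**
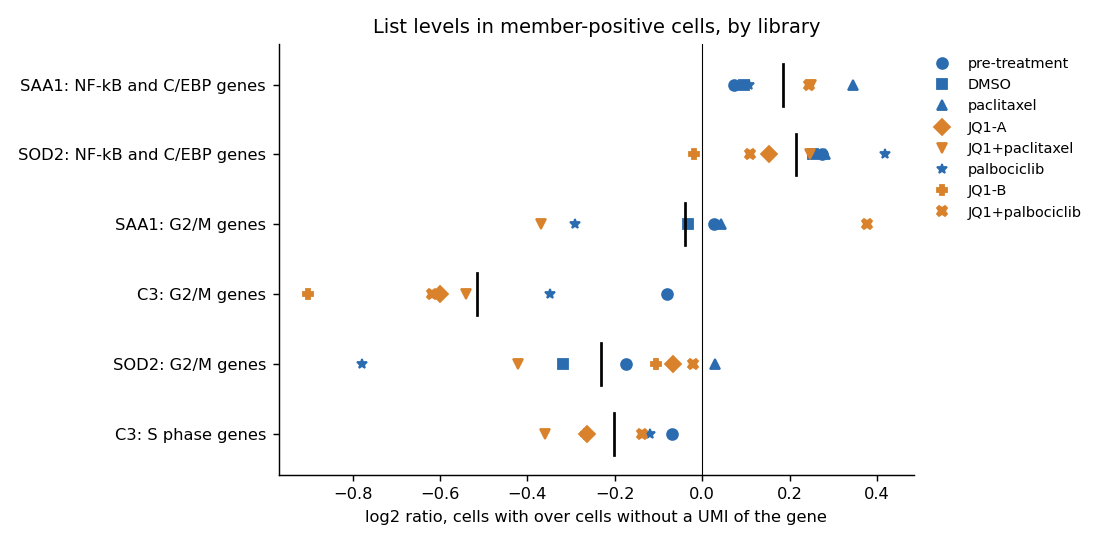
Log2 ratio of summed list genes in cells with over cells without a UMI of the named member, 1 symbol per library (orange with JQ1) and a black bar for the mean. C3 lay left of 0 for G2/M genes in all 6 libraries with at least 20 cells on each side (mean -0.52), and SAA1 scattered around 0 (mean -0.04).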

How the data were processed

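The authors captured cells with 10x Genomics Chromium 3′ chemistry and aligned and counted reads with CellRanger on hg19; the deposited table held UMI counts for genes seen in at least 3 cells, and a second deposited file gave the library of each cell. The study's own filter (2000 or more genes, mitochondrial share between 1 and 15%) had not been run on the deposited counts; 5575 of 5738 cells passed it. Levels used all cells, scaled to CPM by library totals. Values per cell used 5487 filtered cells thinned to 10000 UMIs (seed 7). No doublet caller was run on this 1 line.

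UMI counts were summed per library and genes with at least 5 CPM in at least 2 libraries were tested in edgeR 4.0.16 (TMM, quasi-likelihood, Benjamini-Hochberg over 9288 genes, 4 residual degrees of freedom). On simulated counts for these 9288 genes, with planted changes of 2 on the log2 scale, each of the 3 terms recovered 100% of 200 changed genes. They made 5 (JQ1), 12 (palbociclib) and 8 (paclitaxel) false calls. The simulation held no experiment effect and no joint drug effect, and smaller changes were not simulated. It therefore does not give the power or error rate for the measured libraries. SE values are approximate. TMM factors were 0.901 to 0.965 in JQ1-exposed and 1.00 to 1.10 in other libraries, so CPM ratios between these sets differ from fitted ones. The edgeR p-values rest on how far pooled libraries lay from the additive fit, and not on the spread between replicate libraries. Only JQ1 alone had 2 libraries. Differences between experiments, passaging and joint drug effects therefore enter that spread. S-phase and G2/M lists were those of Seurat 5.3.0.

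The members and gene lists were chosen with earlier results of these data known. Named genes were the members, every called list gene up to the 8 largest per list and drug, the 5 genes closest to each member across libraries, and the 10 closest to SAA1 over palbociclib cells. FABP4, CD68, IL6, IL6ST, STAT3, CEBPB, CEBPD, NFKB2, RELA, REL, BCL3, TLR4, SCARB1 and the genes of the last section were named after values were seen. For 1 listed gene that is part of the counts, values are not reported here.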

Additional observations from a re-analysis of the deposited data

Results flagged for a closer look

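In the 4 JQ1-exposed libraries, JQ1+paclitaxel stood apart for SAA1 (59.8 CPM, where the next was 5.94) and SAA2 (5.02 CPM), by a gap to the next library of 0.947 and 0.944 of the range. Among the 4 unexposed libraries palbociclib stood apart for SAA2 (48.9 CPM, gap 0.837). These gaps passed the limit of Dixon's rule for 4 values, which chance passes in about 1 of 20 groups. They are a description and no test, since the genes were chosen with these levels known and the 4 libraries of each set differ in treatment. For C3 and SOD2 no gap was as large.

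For SAA1, SAA2 and C3 the JQ1 contrast went in opposite directions on the 2 partner drugs. Against paclitaxel, JQ1+paclitaxel had ratios of 3.14 for SAA1, 1.90 for SAA2 and 3.53 for C3. Against palbociclib, JQ1+palbociclib had ratios of 0.0232 for SAA1, 0.00927 for SAA2 and 0.0968 for C3. SOD2 had ratios of 1.04 (0.976 to 1.10) and 0.157. Each ratio rests on 1 library per arm, so the difference was not tested, and partner drug and experiment cannot be told apart.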

How the results depend on the processing

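No paired analysis was possible because the treatment groups shared fewer than 2 replicate numbers: only JQ1 had 2 libraries. The count of listed genes called for JQ1, 32, became 20 at a minimum of 20 CPM, 19 with the experiment as a term, 19 within the JQ1+palbociclib experiment (9 of them among the 32, with 1 library in the arm without JQ1) and 18 to 35 with 1 library left out (lowest without JQ1-A). In the same order, the 1655 genes called higher for JQ1 became 1028, 972, 53 and 847 to 2190, and the 1833 called lower became 1034, 1071, 231 and 917 to 2187. CD55 turned to 0.16 within the JQ1+palbociclib experiment. The fits within experiments were chosen after seeing the data.

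For palbociclib, the 0 listed genes became 3 with DESeq2, 1 with no filter and 0 to 10 with 1 library left out (4 without paclitaxel or JQ1+paclitaxel, 10 without JQ1+palbociclib). The 19 genes called higher became 266 with DESeq2, 147 with no filter, 12 at 20 CPM, 0 with the experiment term and 0 to 532 with 1 library left out. The 7 called lower became 249, 58, 4, 0 and 0 to 419, and 13 in cells passing the study's filter. Without pre-treatment, DMSO or JQ1-B both counts were 0. For paclitaxel, the genes called higher became 1 with DESeq2, 1 within its experiment and 0 to 1 with 1 library left out, those called lower 8, 6 and 0 to 4, and 2 with no filter, and the listed genes stayed at 0 to 0. The cause of these changes was not tested.

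SAA1 in palbociclib over DMSO was 11.4 in thinned cells and 12.5 without the cells of most UMIs, and in JQ1+palbociclib over palbociclib 0.0180 in thinned cells. SAA2 there was 0 in thinned cells. With TMM library sizes SOD2 was 3.07 in palbociclib and 0.583 in JQ1-A over DMSO. Shares of palbociclib cells with all UMIs and at 5000 UMIs were 60.6 and 36.7% for SAA1, 22.5 and 11.6% for SAA2, and 36.2 and 11.1% for C3. With at least 2 UMIs of each gene, joint occurrence over independence in palbociclib was 3.29 for SAA1 and SAA2 and 1.91 for SAA1 and C3, and 0 for SAA2 and C3 in pre-treatment (4.13 with 1 UMI), where only 0.0823 cells would be given. SAA2 and C3 in palbociclib had 2.65 at 5000 UMIs.

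At 5000 UMIs the mean log2 ratio turned to -0.0747 for SAA1 and S phase, 0.0328 for SAA1 and the IL-1 list, -0.0450 for SAA2 and the IL-6 list and -0.0245 for C3 and the IL-1 list. With 1 library left out it ranged from -0.0700 to 0.0480 for SAA1 and S phase, -0.124 to 0.0251 for SAA1 and G2/M and -0.334 to 0.00612 for SAA2 and G2/M. For the IL-1 list it ranged from -0.0730 to 0.0149 (SAA1), -0.433 to 0.0816 (SAA2), -0.00248 to 0.0640 (C3) and -0.00631 to 0.0478 (SOD2). The mean ratio of NF-kB genes stayed above 0 for SAA1 (0.15 to 0.21) and that of G2/M genes below 0 for C3 (-0.60 to -0.44). Depth limits LCN2 and CFB, with 3 and 16 UMIs in all, and 1 library per treatment limits all ratios.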

Other observations

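Further secreted complement and acute-phase genes fell below the filter for testing and are given as values, chosen after their levels were seen. C1S, the partner protease of C1R, had 9.67 CPM in palbociclib, 2.35 to 2.48 CPM in pre-treatment, DMSO and paclitaxel, and 0.246 to 0.536 CPM in the 4 JQ1-exposed libraries, JQ1+paclitaxel (0.488) included. CFI, the protease that inactivates C3b, was at 1.15 CPM in palbociclib and at most 0.188 CPM elsewhere. SERPING1, the C1 inhibitor, had 7 UMIs in palbociclib and 0 in the other 7 libraries. SAA4, the constitutive member of the SAA cluster (chr11:18252902-18258349, minus strand, GRCh37), had 27 UMIs in palbociclib, 6 in pre-treatment and 0 in the other 6. C1R and C1S thus were low in JQ1+paclitaxel, where SAA1 was 59.8 CPM.

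Of the cytokine genes in the lists, IL6, LIF and IL1B had their highest values in palbociclib, at 211, 26.2 and 19.8 CPM, against 88.5, 5.46 and 8.47 CPM in DMSO. Others did not: CLCF1 was highest in JQ1+palbociclib (4.08 CPM, 3.26 in palbociclib), IL11 in paclitaxel (0.660 CPM, 0.362 in palbociclib), and TNF had 1.81 CPM in palbociclib and 1.79 in DMSO. In JQ1+paclitaxel IL6, LIF and IL1B had 52.9, 4.67 and 2.23 CPM, which was below DMSO for each. The palbociclib term did not pass for IL6 (edgeR adjusted p = 0.395), LIF (0.142) or IL1B (0.146).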
